A study of Mus musculus with 10 samples.

Results

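The 34 genes described here are direct transcriptional targets of the tumour suppressor p53, followed across the distal colorectum of mice with and without the growth factor gene Pdgfc and with and without local irradiation. They were chosen by name, as the probe sets whose gene symbol in the platform annotation is one of the 34, and each gene is represented by the brightest of its probe sets. Of the 34, 30 were measured on 59 probe sets, among 18193 genes measured in all. A gene was tested where its value lay above the median of the array on at least 2 arrays, which 28 of the 30 and 12568 of all genes did. Tnfrsf10b and Zfp365 were measured but too dim to be tested, and Bax, Fdxr, Gdf15 and Trp53 itself were not analysed here.

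All mice were of the C57BL/6J strain. The groups were Pdgfc+/+ without irradiation (wild type, n = 2), Pdgfc+/+ after irradiation (n = 3), Pdgfc-/- without irradiation (knockout, n = 2) and Pdgfc-/- after irradiation (n = 3). Irradiated mice received 25 Gy of gamma rays locally under chloral hydrate anaesthesia, at 2.14 Gy per min, and tissue about 1 cm above the anus was taken 8 weeks later from irradiated and control mice. The labels give neither the age of the mice nor how the Pdgfc allele was made, and they name no handling of the unirradiated mice under anaesthesia. RNA came from whole tissue, so that fewer cells of a type and less RNA per cell cannot be told apart.

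The p53 protein is stabilised when DNA is damaged, binds a motif of paired decamers near its targets and raises their transcription. Its targets fall into roles: arrest of the cell cycle (Cdkn1a, which encodes the cyclin-dependent kinase inhibitor p21, is the best known), DNA repair, apoptosis, restraint of growth signalling, and feedback on p53 itself through the ubiquitin ligase Mdm2. In the intestine, p53 and its targets Bbc3 (PUMA) and Cdkn1a are known to govern the early loss and survival of crypt cells after irradiation. The tissue here was taken weeks after that phase.

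The stretches before the start sites of several members are shown because genes that share the p53 decamer moved in opposite directions or not at all. They come from the RefSeq promoter table (build GRCm38.p6), which held windows of 300 bases (250 before to 50 after a start site) for 23 of the 30 measured members. Capitals mark exact matches to the p53 decamer consensus of 10 bases (3 purines, a C, 2 bases that are A or T, a G and 3 pyrimidines), which reads the same on both strands. Cdkn1a had 2 windows, and the upstream one, at chr17:29090729-29091028 on the plus strand, held 2 decamers that begin 73 and 51 bases before its start site.
Cdkn1a, chr17:29090729-29090978 on the plus strand: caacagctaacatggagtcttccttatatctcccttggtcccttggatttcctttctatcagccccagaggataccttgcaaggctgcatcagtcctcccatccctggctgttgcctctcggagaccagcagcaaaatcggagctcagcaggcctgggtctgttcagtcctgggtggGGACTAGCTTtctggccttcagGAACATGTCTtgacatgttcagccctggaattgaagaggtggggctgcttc
The window at the other Cdkn1a start site, chr17:29093519-29093818, held no exact decamer. Gadd45a, which was lower after irradiation like Cdkn1a, had a decamer that begins 40 bases before the start.
Gadd45a, chr6:67037408-67037657 on the minus strand: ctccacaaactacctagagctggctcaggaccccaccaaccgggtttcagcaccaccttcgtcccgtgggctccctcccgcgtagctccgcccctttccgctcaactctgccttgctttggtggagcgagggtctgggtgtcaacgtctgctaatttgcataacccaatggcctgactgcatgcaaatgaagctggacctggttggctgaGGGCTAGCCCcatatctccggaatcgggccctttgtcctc
Phlda3 and Psrc1, which were higher after irradiation, are shown for contrast, since their windows held no exact decamer.
Phlda3, chr1:135765835-135766084 on the plus strand: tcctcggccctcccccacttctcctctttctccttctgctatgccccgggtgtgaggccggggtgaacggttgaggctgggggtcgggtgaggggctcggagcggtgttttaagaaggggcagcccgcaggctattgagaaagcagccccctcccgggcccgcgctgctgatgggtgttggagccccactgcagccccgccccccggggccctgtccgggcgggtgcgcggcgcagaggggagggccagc
Psrc1, chr3:108383554-108383803 on the plus strand: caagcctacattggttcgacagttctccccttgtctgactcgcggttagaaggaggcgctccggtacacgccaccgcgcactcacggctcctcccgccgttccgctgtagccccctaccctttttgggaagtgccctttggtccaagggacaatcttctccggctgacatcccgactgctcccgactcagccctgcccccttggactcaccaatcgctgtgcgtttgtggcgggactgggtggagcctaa
Sesn1 and Ccng1, also higher, and Mdm2, which was not called in any comparison on its brightest probe set, are shown as the decamer with its flanks.
Sesn1, chr10:41887246-41887295 on the plus strand: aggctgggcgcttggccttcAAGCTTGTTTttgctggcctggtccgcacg
Ccng1, chr11:40755442-40755491 on the minus strand: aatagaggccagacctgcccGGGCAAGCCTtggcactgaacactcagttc
Mdm2, chr10:117710915-117710964 on the minus strand: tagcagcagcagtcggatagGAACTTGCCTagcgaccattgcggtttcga

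An exact decamer lay in a window of 9 of these 23 members (39.1%), namely Abhd4, Aen, Ccng1, Cdkn1a, Ei24, Gadd45a, Mdm2, Polk and Sesn1. Over all 27025 genes with a window the share was 9.55%. A pair of exact decamers with at most 13 bases between them was found for the Cdkn1a window alone among 32 windows of members, and in 0.0731% of all 32851 windows. These matches describe the letters in the windows only, and the motif can lie elsewhere.

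Each of the 10 arrays measured one sample, labelled as a biological replicate, and the deposited values are log2 MAS5 signals. Both Pdgfc probe sets were lower in knockout than in wild type arrays of the same condition, at 5.40 to 6.42 against 7.01 to 7.76 without irradiation and at 6.18 to 7.15 against 8.56 to 9.06 after it. No 2 arrays shared values, and arrays of one group correlated at 0.88 or higher. The female transcript Xist read 13.48 to 14.18 on 4 arrays (every irradiated wild type array, 3 in number, plus the first irradiated knockout array) and 6.19 to 7.27 on the other 6, so in wild type the sex pattern and irradiation cannot be told apart. Array medians were 6.64 to 7.01 without and 6.93 to 7.18 after irradiation, and the 3′ minus 5′ difference of Gapdh was -0.32 to 0.02 and -0.54 to -0.35. When arrays were centred on their medians instead, the median difference of all genes in irradiated against unirradiated wild type went from 0.07 to -0.27, and the share of called genes that were higher from 65.4% to 33.8%. In knockout that median went from 0.01 to -0.11, with a share of 59.6% and then 52.6%.

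After irradiation, some p53 targets were higher and others lower in both genotypes. In wild type, 7 of the 28 tested members rose and 3 fell at an adjusted p under 0.05 (limma, adjusted over all 12568 genes), and in knockout 6 rose and 2 fell. Psrc1, Phlda3, Eda2r, Plk2 and Sesn2 rose in both genotypes, and Cdkn1a and Gadd45a fell in both, which makes 7 members called in both. The split in wild type depends on the scaling. With arrays centred on their medians, 4 members rose and 6 fell there, since Ddb2, Sesn1 and Sesn2 were no longer called and Dcxr, Ddit4 and Plk3 were called lower. The split averaged over genotypes was 8 higher and 4 lower, and 6 and 8 with that centring, while in knockout the same 8 members were called in the same directions. Of all genes, 24.1% were called in wild type (15.8% higher, 8.34% lower), against 35.7% of members. In knockout 23.5% of all genes were called (14.0% higher, 9.5% lower), against 28.6% of members. With both genotypes averaged, 12 members were called (42.9%, against 39.0% of all genes). The median difference of the 28 members was 0.28 in wild type, beside 0.07 over all genes, and 0.06 in knockout, beside 0.01. After median centring it was -0.06 in both genotypes, beside -0.27 and -0.11 over all genes. All 6 irradiated arrays lay above all 4 unirradiated arrays for 6 members (Psrc1, Phlda3, Eda2r, Plk2, Sesn1 and Sesn2; 21.4%, against 15.4% of all genes). They lay below for Cdkn1a and Gadd45a (7.14%, against 10% of all genes). The members' shares thus lay near those of all genes, some moderately above and some below. The group means compared in wild type and in knockout come from different arrays. Both comparisons share the spread estimated in the same fit, so their calls are not independent.

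**Figure D1:**
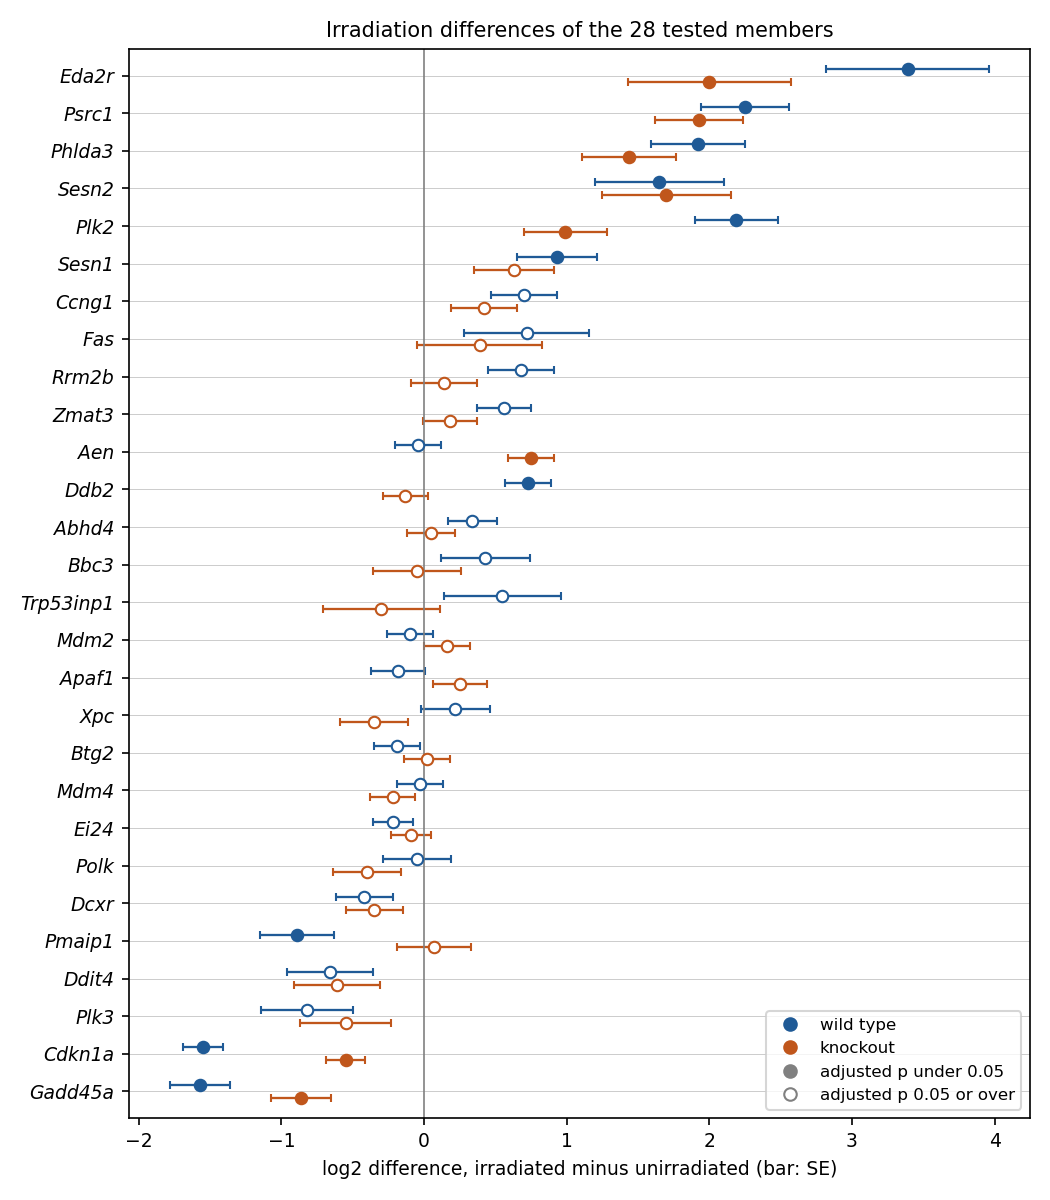
Difference between irradiated and unirradiated arrays (log2 MAS5 signal, x axis) for each of the 28 tested members (rows), in wild type (blue) and knockout (orange), with bars for the standard error and filled points for an adjusted p under 0.05. Differences run from -1.57 for Gadd45a to 3.39 for Eda2r, both in wild type.

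Cdkn1a, whose product p21 stops cyclin-dependent kinases at the G1 checkpoint, was lower after irradiation in both genotypes. Its log2 signal was 13.42 and 13.27 in unirradiated wild type and 11.88, 11.87 and 11.65 after irradiation. In knockout it was 12.29 and 12.44 without and 11.92, 11.66 and 11.86 after irradiation. Irradiated arrays of both genotypes thus lay close together, below every unirradiated array, and unirradiated wild type lay highest. The fall was 2.92-fold in wild type, a log2 difference of -1.55 ± 0.14 (SE, limma adjusted p = 0.000301), and 1.46-fold in knockout, at -0.55 ± 0.14 (adjusted p = 0.0183). The other Cdkn1a probe set gave -1.53 in wild type (adjusted p = 0.000758, over all probe sets) and -0.82 in knockout. The wild type call held under all 21 alternatives. The knockout call was lost without either unirradiated knockout array, at -0.62 (adjusted p = 0.0627) without replicate 1 and -0.47 (0.123) without replicate 2.

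Gadd45a, a stress sensor that binds p21 and PCNA and acts in G2/M arrest, followed the same pattern. It read 10.66 and 11.17 in unirradiated wild type, then 9.60, 9.11 and 9.32 after irradiation. Knockout arrays read 9.83 and 10.31, then 9.11, 9.23 and 9.28. The irradiated arrays of both genotypes again formed one narrow range below all unirradiated ones. Its log2 difference was -1.57 ± 0.21 in wild type (2.97-fold lower, limma adjusted p = 0.00131) and -0.86 ± 0.21 in knockout (1.82-fold lower, adjusted p = 0.0188). In knockout the call was lost without unirradiated replicate 2 (-0.62, adjusted p = 0.157) and without irradiated replicate 1 (-0.81, 0.059).

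Psrc1, which encodes a microtubule-associated protein of the mitotic spindle, was among the members that rose in both genotypes. Unirradiated arrays read 6.58 and 6.53 in wild type and 6.58 and 6.92 in knockout, and irradiated ones 8.78, 8.96 and 8.68 in wild type and 8.92, 8.01 and 9.11 in knockout. The lowest irradiated array, knockout replicate 2, was still more than 1 log2 unit above the highest unirradiated array. The rise was 4.75-fold in wild type (2.25 ± 0.31, limma adjusted p = 0.00146) and 3.81-fold in knockout (1.93 ± 0.31, adjusted p = 0.00296). Among unirradiated arrays, only 1 read above its array median. Psrc1 thus passed the filter on dim signals only with irradiated arrays, and the size of its rise is uncertain. The knockout call held under all 21 alternatives that gave a value. Its 2 other probe sets were too dim to be tested.

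Plk2, a polo-like kinase with roles in centriole duplication and the S-phase checkpoint, read 7.91 and 8.71 in unirradiated wild type and 10.10, 10.65 and 10.75 after irradiation. Knockout arrays read 9.60 and 9.10 without and 10.27, 10.17 and 10.60 after irradiation. Unirradiated knockout thus lay between unirradiated wild type and the irradiated arrays. Differences were 2.19 ± 0.29 in wild type (4.56-fold, limma adjusted p = 0.00106) and 0.99 ± 0.29 in knockout (1.99-fold, adjusted p = 0.0324). Its second probe set is dim (mean 3.43) and lay above the array median on 0 arrays. When both probe sets were averaged no Plk2 call was left, at 1.09 in wild type (adjusted p = 0.219), -0.21 in knockout (0.831) and 0.44 over both (0.441). In knockout the call was also lost without either unirradiated array (1.25, adjusted p = 0.0648, without replicate 1 and 0.74, 0.216, without replicate 2) and without irradiated replicate 1 (1.03, 0.0695) or 3 (0.87, 0.0946).

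Ccng1, which encodes cyclin G1, was called with both genotypes averaged (0.56 ± 0.16, limma adjusted p = 0.0218) but not in wild type (0.70 ± 0.23, adjusted p = 0.0531) or knockout (0.42 ± 0.23, 0.21) alone. The averaged call was lost without wild type unirradiated replicate 1 (0.50, adjusted p = 0.0837) and without knockout unirradiated replicate 1 (0.53, 0.0753) or 2 (0.60, 0.0501). Its 2 dimmer probe sets were called in both genotypes, with differences of 0.81 (adjusted p = 0.0103) and 1.40 (0.00091) in wild type and of 0.62 (0.0305) and 1.09 (0.00289) in knockout. The mean of its probe sets was called too, at 0.97 in wild type (adjusted p = 0.00722) and 0.71 in knockout (0.0246). Plk3, a kinase of the same family as Plk2, had an averaged difference of -0.68 ± 0.23 (adjusted p = 0.0384), and the call was lost under 11 of 20 alternatives, each with the same sign. Among those were leaving out wild type unirradiated replicates 1 and 2, wild type irradiated replicates 2 and 3, knockout unirradiated replicate 2 and knockout irradiated replicates 1 and 2, where it ran from -0.72 to -0.50. Btg2, an antiproliferative factor, had differences of -0.19 ± 0.16 and 0.02 ± 0.16 and its 10 arrays read 10.02 to 10.62.

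**Figure D2:**
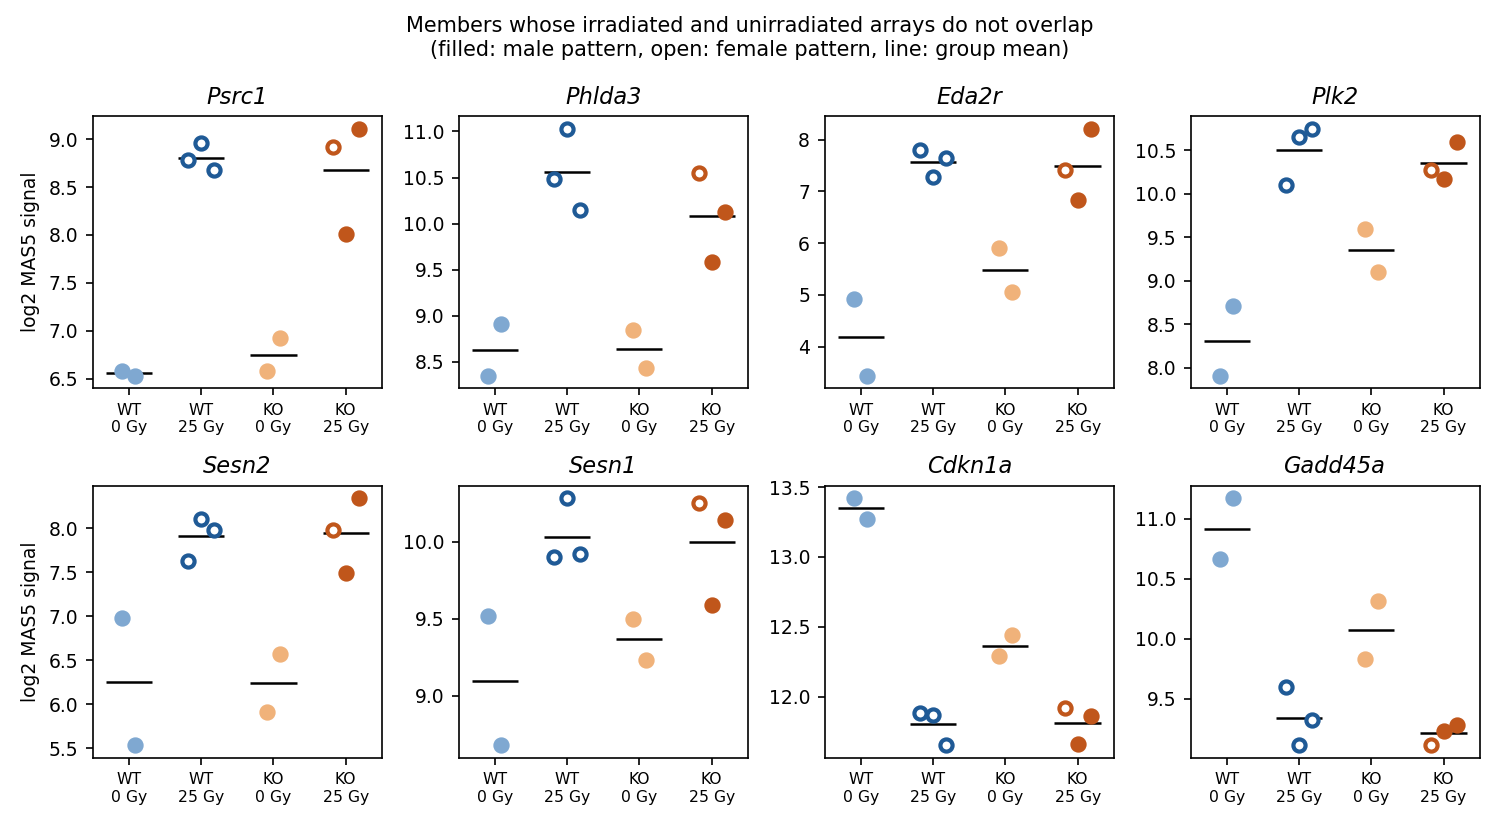
Log2 MAS5 signal (y axis, scale differs between panels) of the 8 members whose irradiated and unirradiated arrays do not overlap, for each array in the 4 groups (x axis; WT, wild type; KO, knockout). Open points are arrays with the female pattern, filled points arrays with the male pattern, and lines are group means. In knockout, irradiated arrays of both patterns exist. That each lies on the same side of all unirradiated arrays follows from how the 8 members were chosen.

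Of the members that restrain growth signalling or oxidative stress, Phlda3 and Sesn2 rose in both genotypes, Sesn1 rose in wild type, and Ddit4 was lower with both genotypes averaged. Phlda3, a repressor of the kinase Akt, read 8.35 and 8.91 in unirradiated wild type, 10.48, 11.03 and 10.15 after irradiation, 8.85 and 8.44 in unirradiated knockout and 10.55, 9.58 and 10.13 after irradiation. The unirradiated arrays of both genotypes covered the same range, and all irradiated arrays lay above it. The rise was 3.80-fold in wild type (1.92 ± 0.33, limma adjusted p = 0.00381) and 2.71-fold in knockout (1.44 ± 0.33, adjusted p = 0.0135). In knockout 21 of 22 alternatives kept the call, which was lost without unirradiated replicate 2 (1.24, adjusted p = 0.105).

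The sestrins Sesn1 and Sesn2, which restrain the growth kinase mTORC1 and help to regenerate peroxiredoxins, were higher on all irradiated arrays. Sesn2 read 6.98 and 5.53 in unirradiated wild type, 7.63, 8.10 and 7.98 after irradiation, 5.91 and 6.57 in unirradiated knockout and 7.98, 7.49 and 8.34 after irradiation. Its rise was 1.65 ± 0.45 in wild type (3.14-fold, limma adjusted p = 0.0256) and 1.70 ± 0.45 in knockout (3.24-fold, adjusted p = 0.0235). Only 1 of the 4 unirradiated arrays read above its array median. Sesn2 thus passed the filter on dim signals only with irradiated arrays, and the size of its rise is uncertain. The second Sesn2 probe set gave 1.15 in wild type (adjusted p = 0.0317) and 0.69 in knockout, where it was not called (0.154). In wild type the call was lost without unirradiated replicate 2 (0.93, adjusted p = 0.16) and without irradiated replicate 2 (1.55, 0.0766) or 3 (1.61, 0.0579). In knockout it was lost without either unirradiated array (1.36, adjusted p = 0.163, without replicate 1 and 2.03, 0.0574, without replicate 2) and without irradiated replicate 1 (1.68, 0.0656) or 3 (1.50, 0.076).

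Sesn1 read 9.52 and 8.68 in unirradiated wild type and 9.90, 10.28 and 9.92 after irradiation. In knockout it read 9.50 and 9.23, then 10.25, 9.59 and 10.14. It was called in wild type (0.93 ± 0.28, limma adjusted p = 0.0358) and not in knockout (0.63 ± 0.28, adjusted p = 0.125), and the difference of these effects was -0.30 ± 0.39 (adjusted p = 0.829). The wild type call is close to the threshold and was lost in 13 of 21 alternatives, among them those without wild type unirradiated replicate 2 (0.51, adjusted p = 0.234), without any 1 of the irradiated wild type arrays (1.0, 0.81 and 0.99, adjusted p = 0.0539, 0.107 and 0.0565) and without either unirradiated knockout array (0.93 in both, 0.0504 and 0.0506). Its other tested probe sets were not called, at 0.31 and 1.2 in wild type and -0.19 and 0.20 in knockout. Ddit4 (REDD1), another inhibitor of mTORC1, moved the other way, with an averaged difference of -0.64 ± 0.22 (adjusted p = 0.0399). That call was lost in 11 of 20 alternatives, including without replicate 1 of each of wild type unirradiated, wild type irradiated and knockout irradiated, without wild type irradiated replicate 3 and without replicate 2 of both knockout groups, where it ran from -0.60 to -0.49. Neither genotype alone gave a call for Ddit4 (-0.66 ± 0.30 in wild type, -0.61 ± 0.30 in knockout).

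Among the members that promote apoptosis, Eda2r, a receptor of the tumour necrosis factor receptor family that binds ectodysplasin A2, was higher on all irradiated arrays. Its signal was 4.93 and 3.44 in unirradiated wild type, 7.79, 7.28 and 7.64 after irradiation, 5.90 and 5.06 in unirradiated knockout and 7.41, 6.83 and 8.21 after irradiation. The 4 unirradiated arrays all read below their array median, where MAS5 spreads values widely, so no fold is given. It passed the filter on dim signals through irradiated arrays alone, 5 in number. Fitted differences were 3.39 ± 0.57 in wild type (limma adjusted p = 0.00355) and 2.0 ± 0.57 in knockout (adjusted p = 0.0322). In wild type it ranged from 1.60 to 4.13 over 21 alternatives. In knockout the call was lost without unirradiated replicate 1 (2.42, adjusted p = 0.0715) or 2 (1.58, 0.189) and without irradiated replicate 1 (2.04, 0.078) or 3 (1.64, 0.107). Eda2r lies on the X chromosome. Both irradiated knockout arrays with the male pattern (6.83 and 8.21) lay above the 4 unirradiated arrays, which all have the male pattern. That only restates that every irradiated array lay higher. The knockout fit on male-pattern arrays alone did not call Eda2r (2.04, limma adjusted p = 0.0893), and the part of sex was not tested.

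Pmaip1 (NOXA), a BH3-only protein that antagonises Mcl1, fell in wild type alone, from 11.52 and 11.59 to 11.17, 10.40 and 10.41 (-0.89 ± 0.26, limma adjusted p = 0.0321). In knockout it read 10.99 and 10.88, then 10.70, 10.92 and 11.37 (0.07 ± 0.26). The difference of the 2 effects was 0.96 ± 0.36 (adjusted p = 0.401), so a genotype difference was not shown. The wild type call was lost in 8 of 21 alternatives, among them those without unirradiated replicate 1 (-0.93, adjusted p = 0.123) or 2 (-0.86, 0.116) and without irradiated replicate 2 (-0.76, 0.0977) or 3 (-0.77, 0.0843).

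Aen, an exonuclease that acts in p53-dependent apoptosis, read 8.45 and 8.58 in unirradiated knockout and 9.24, 9.29 and 9.26 after irradiation. In wild type it read 8.92 and 9.34, then 8.97, 9.17 and 9.11. The 2 unirradiated knockout arrays were the lowest of all 10. The difference was 0.75 ± 0.16 in knockout (limma adjusted p = 0.0112) and -0.04 ± 0.16 in wild type (adjusted p = 0.882), while the difference of these effects had an adjusted p of 0.286 (0.79 ± 0.23). A second Aen probe set gave 1.1 in knockout (adjusted p = 0.0217) and 0.60 in wild type (0.156), and the third, dimmer still, 0.84 (0.283) and -0.23 (0.797). Without unirradiated knockout replicate 1 the knockout call was lost (0.69, adjusted p = 0.0822). Averaged over genotypes it was 0.36 ± 0.12 (adjusted p = 0.0354), a call that 13 of 20 alternatives lost, including leaving out wild type unirradiated replicate 1 (0.25, adjusted p = 0.126), wild type irradiated replicates 2 and 3 (0.33 and 0.35), both unirradiated knockout arrays in turn (0.32 and 0.39) and knockout irradiated replicates 1 and 3 (0.36 in both).

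The BH3-only gene Bbc3 (PUMA) and the death receptor gene Fas were not called. Bbc3 read 6.80 to 7.52 without irradiation and 7.05 to 7.71 after it, with differences of 0.43 ± 0.31 in wild type and -0.05 ± 0.31 in knockout. Fas ranged from 7.44 to 8.76 and from 7.96 to 9.25, with differences of 0.72 ± 0.44 and 0.39 ± 0.44. Apaf1, the scaffold of the apoptosome, had differences of -0.18 ± 0.19 and 0.25 ± 0.19, and Ei24, a membrane protein induced by etoposide, of -0.22 ± 0.14 and -0.09 ± 0.14. Trp53inp1, which promotes p53 phosphorylation and autophagy, read 11.73 to 13.47 over the 10 arrays and had differences of 0.55 ± 0.41 and -0.30 ± 0.41. Its unirradiated and irradiated ranges overlapped. The TRAIL receptor gene Tnfrsf10b read 4.47 to 6.46 and lay above the array median on 0 of 10 arrays.

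In the DNA repair group, Ddb2, the damage sensor of nucleotide excision repair, rose in wild type from 7.88 and 7.96 to 8.59, 8.75 and 8.62. In knockout it read 8.66 and 8.88 without and 8.72, 8.64 and 8.58 after irradiation. Unirradiated wild type was the group that stood apart, since the other 8 arrays covered 8.58 to 8.88. The wild type difference was 0.73 ± 0.16 (limma adjusted p = 0.0109) and the knockout difference -0.13 ± 0.16 (adjusted p = 0.605). Without wild type unirradiated replicate 1 the call was lost (0.69, adjusted p = 0.0618), as it was under quantile normalization (0.48, 0.0672) and median centring (0.39, 0.165). Its second probe set gave 0.43 (adjusted p = 0.152) in wild type.

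Xpc, a recognition factor of the same repair route, had differences of 0.22 ± 0.24 in wild type and -0.35 ± 0.24 in knockout. Polk, a translesion polymerase, had -0.05 ± 0.24 and -0.40 ± 0.24. Rrm2b, the p53-induced subunit of ribonucleotide reductase, read 8.51 and 8.43 in unirradiated wild type and 8.93, 9.28 and 9.23 after irradiation without overlap, at a difference just outside the threshold (0.68 ± 0.23, limma adjusted p = 0.0598). A dimmer Rrm2b probe set was called in wild type (1.01, adjusted p = 0.0145). In knockout Rrm2b had a difference of 0.14 ± 0.23.

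Mdm2, the ubiquitin ligase that degrades p53, read 10.19 and 10.47 in unirradiated wild type, 10.28, 10.20 and 10.22 after irradiation, 10.31 and 10.19 in unirradiated knockout and 10.15, 10.53 and 10.54 after irradiation. All groups overlapped, and the differences were -0.10 ± 0.16 in wild type (limma adjusted p = 0.70) and 0.16 ± 0.16 in knockout (0.509). Its second probe set, which is dimmer, was called in wild type (0.65, adjusted p = 0.0201) and had 0.38 in knockout, so the 2 probe sets of Mdm2 disagree. Mdm4, the partner of Mdm2 that masks the transactivation domain of p53, read 9.89 to 10.32 over the 10 arrays and had differences of -0.03 ± 0.16 and -0.22 ± 0.16.

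**Figure D3:**
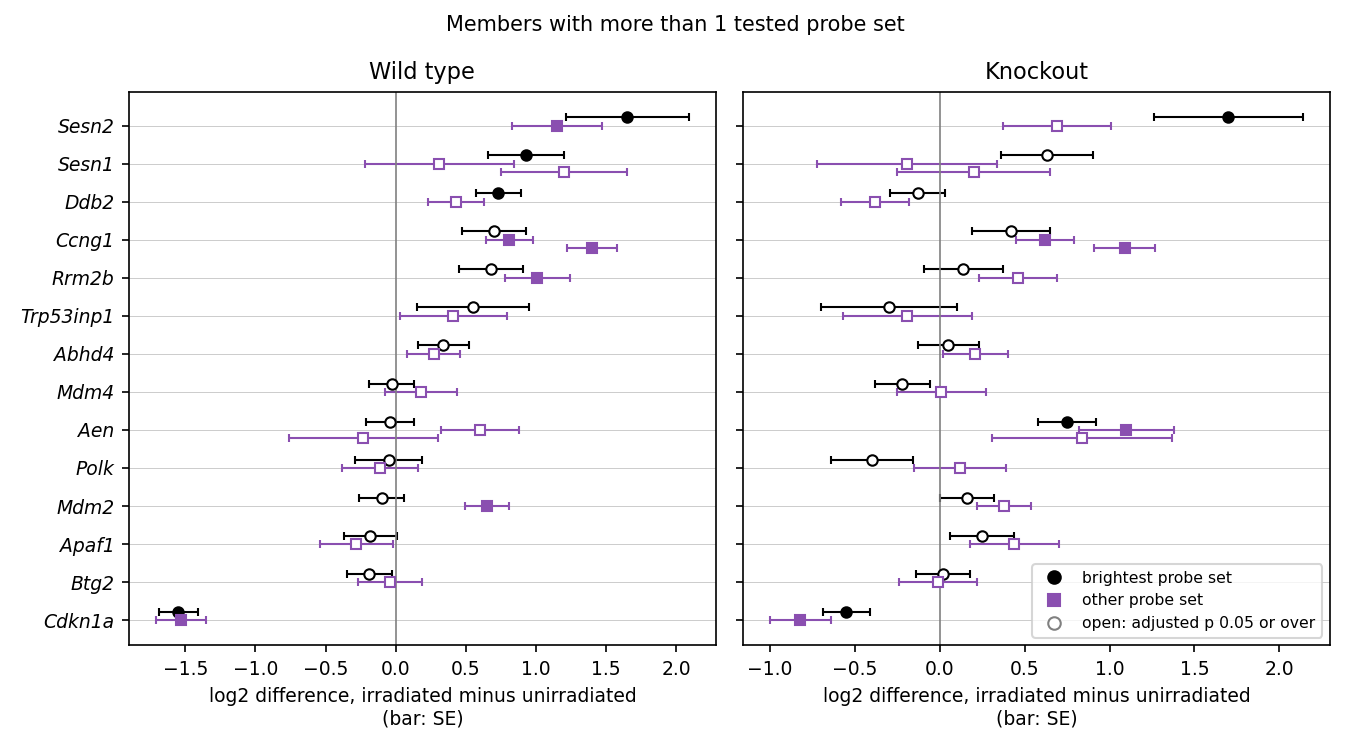
Difference between irradiated and unirradiated arrays (log2 MAS5 signal, x axis) for each tested probe set of the members that have more than 1 (rows), in wild type (left) and knockout (right), with bars for the standard error. Black circles are the brightest probe set, purple squares the others, and filled symbols have an adjusted p under 0.05 over all probe sets. Both Cdkn1a probe sets lie below 0, while those of Mdm2 in wild type lie at -0.10 and 0.65.

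The remaining members have other roles. Zmat3, an RNA-binding protein that controls splicing and mRNA stability, read 8.84 and 8.63 in unirradiated wild type and 9.38, 9.42 and 9.10 after irradiation (0.56 ± 0.19, limma adjusted p = 0.0577), and had 0.18 ± 0.19 in knockout. Abhd4, a lipase of N-acyl phospholipids, had differences of 0.34 ± 0.17 and 0.05 ± 0.17, and Dcxr, a carbonyl reductase of sugar metabolism, of -0.42 ± 0.20 and -0.35 ± 0.20. None of these 3 was called in either genotype. Zfp365, a zinc finger gene linked to telomere and fragile site stability, was dim throughout, at 3.07 to 5.27 without irradiation and 5.17 to 6.61 after it, and lay above the array median on 0 of 10 arrays.

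Since all irradiated wild type arrays carry the female pattern, the irradiation calls were also fitted with the sex pattern as a covariate. Both patterns occur only among the irradiated knockout arrays, 1 female and 2 male, so the sex term was estimated there. The wild type estimates of this fit therefore rest on that 1 female-pattern knockout array. They cannot separate sex from irradiation in wild type. In wild type, 1 of the 10 calls then held, that of Cdkn1a (-1.71, limma adjusted p = 0.0402). The other 9 estimates kept their sign. Of these, 3 became smaller by over 1.5 times, namely Phlda3 (from 1.92 to 1.23, adjusted p = 0.381), Sesn1 (from 0.93 to 0.55, 0.696) and Pmaip1 (from -0.89 to -0.44, 0.734). The remaining 6 were 3.50 for Eda2r (adjusted p = 0.202), 2.30 for Plk2 (0.114), 1.89 for Psrc1 (0.188), 1.59 for Sesn2 (0.478), 0.62 for Ddb2 (0.419) and -1.43 for Gadd45a (0.16). In knockout, where 2 of 3 irradiated arrays share the male pattern of the unirradiated ones, 4 of the 8 calls held with the covariate. These were Psrc1 (1.81, limma adjusted p = 0.0132), Phlda3 (1.21, 0.0454), Cdkn1a (-0.60, 0.0338) and Aen (0.76, 0.0329), while Plk2 (1.03, 0.0716), Gadd45a (-0.81, 0.0611), Eda2r (2.04, 0.0763) and Sesn2 (1.68, 0.0663) were not called. The fit on male-pattern arrays alone gave the same knockout estimates and called 3, Psrc1 (adjusted p = 0.0425), Phlda3 (0.0358) and Plk2 (0.0479), and not Cdkn1a (0.0856) or Aen (0.0675). Psrc1 and Phlda3 were thus called in both fits, and Cdkn1a, Aen and Plk2 in 1 of them. The knockout estimates are the same by construction, since the sex term takes up the female-pattern array. The 2 fits are therefore not separate checks.

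The signal of cell type markers differed between irradiated and unirradiated arrays. Absorptive colonocyte markers averaged 11.69 to 12.19 per unirradiated array and 10.35 to 11.37 per irradiated array, and 8 of 13 tested fell in wild type and 7 in knockout. Squamous epithelium markers averaged 4.22 to 5.23 and 8.84 to 12.65 (10 of 13 rose in wild type, 13 in knockout), with 11 of 13 measured below the array median on every unirradiated array. Macrophage markers averaged 6.90 to 8.38 and 10.13 to 11.19 (10 of 10 rose in both genotypes), and fibroblast markers 9.83 to 9.98 and 11.55 to 12.14 (8 of 8 rose in wild type, 7 in knockout). Averages for goblet cell markers (13.62 to 14.08 and 12.92 to 13.94) and smooth muscle markers (13.28 to 13.58 and 13.25 to 13.86) overlapped. Striated muscle markers overlapped as well (4.33 to 8.74 and 5.59 to 12.26). Of 14 lists, the averages of the other 11 separate all irradiated from all unirradiated arrays, as the members that did not overlap do. Beside the 4 lists above, these were crypt stem cells (7.56 to 8.03 and 8.12 to 8.81), neutrophils (4.15 to 6.11 and 7.81 to 10.32), T and NK cells (4.81 to 6.22 and 6.69 to 7.87), B and plasma cells (6.50 to 7.93 and 9.88 to 11.86), mast cells (4.53 to 6.02 and 8.24 to 9.32), endothelium (6.86 to 7.46 and 8.33 to 8.88) and adipocytes (4.93 to 7.98 and 8.89 to 12.04), each higher after irradiation. Many of these markers were dim without irradiation. Below the array median on every unirradiated array lay 4 of 5 measured for neutrophils, 6 of 8 for T and NK cells and 4 of 6 for mast cells. The size of those rises is uncertain. Crypt stem cell markers did not move together: of 7 tested, 3 rose and 1 fell in wild type, and 1 rose in knockout. Of 6 mast cell markers, 5 rose in both genotypes, and Kit fell in knockout. The part of the cell types in the members' differences was not tested. The 5 tested genes whose signal was most like that of Cdkn1a over the 10 arrays were Actr1a (r = 0.981), Tmbim1 (0.970), Parp4 (0.964), Supt6 (0.957) and Arf6 (0.952), a description over arrays that share their groups.

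Loss of Pdgfc without irradiation was accompanied by 1 call among the 28 members (3.57%, against 1.23% of all genes). Cdkn1a was 1.98-fold lower in unirradiated knockout (12.29 and 12.44) than in unirradiated wild type (13.42 and 13.27), a log2 difference of -0.99 ± 0.15 (limma adjusted p = 0.0147). Its second probe set gave -0.83 (adjusted p = 0.0884). With 2 arrays a group the call rests on each of them. Without wild type replicate 1 or knockout replicate 1 the value was -0.91 (adjusted p = 0.0576 and 0.135), and without wild type replicate 2 or knockout replicate 2 it was -1.06 (0.0523 and 0.0654). It was also lost when only these 4 arrays were fitted (adjusted p = 0.0529). The 4 arrays share the male pattern.

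The unirradiated arrays of the 2 genotypes did not overlap for 15 of the 28 members (53.6%), Cdkn1a included, against 47.8% of all genes, so that with 2 arrays a group such a gap is common. None of the other 14 passed the test. Ddb2 was 0.85 ± 0.17 higher in knockout (limma adjusted p = 0.0543), Plk2 1.04 ± 0.31 higher (0.139), Gadd45a 0.84 ± 0.24 lower (0.118) and Aen 0.62 ± 0.18 lower (0.131), which are the 4 with the smallest p. The largest of the differences was that of Eda2r, at 1.29 ± 0.63 higher (adjusted p = 0.338) between signals that all lay below their array medians. The remaining 9 were Ccng1, Trp53inp1, Zmat3, Rrm2b, Polk, Psrc1 and Xpc, higher in knockout by 0.20 to 0.72, and Pmaip1 and Apaf1, with differences of -0.62 and -0.43. In each of the 4 with the smallest p the unirradiated knockout arrays lay toward the irradiated ones except for Aen, where they lay away from them. These 4 were picked by the genotype difference itself, and the same unirradiated wild type arrays are the reference for both. Where the knockout arrays lay is therefore not separate evidence. Beside these values, striated muscle markers averaged 8.37 to 8.74 in unirradiated knockout and 4.33 to 4.35 in unirradiated wild type, adipocyte markers 7.44 to 7.98 and 4.93 to 5.61, macrophage markers 6.90 to 7.58 and 8.17 to 8.38, T and NK cell markers 4.81 to 4.93 and 5.89 to 6.22, and B and plasma cell markers 6.50 to 6.96 and 7.59 to 7.93. Their part was not tested.

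After irradiation no member was called between genotypes, and 0.0% of all genes were. At an unadjusted p under 0.05 there were 0 members and 500 genes (limma). Btg2 (0.26 ± 0.14 higher in knockout) and Phlda3 (-0.47 ± 0.30) had the smallest p among members. The precision differed by gene. For Cdkn1a the difference was 0.02 with a 95% interval of -0.26 to 0.29, for Ddb2 -0.01 (-0.33 to 0.31), for Mdm2 0.17 (-0.14 to 0.49) and for Gadd45a -0.13 (-0.56 to 0.30). For Eda2r (-1.24 to 1.06), Sesn2 (-0.86 to 0.93) and Psrc1 (-0.75 to 0.50) the intervals leave room for larger differences. These intervals are per gene and not adjusted for the number of members or for sex pattern. All irradiated wild type arrays have the female pattern, but among irradiated knockout arrays only the first does. Genotype and sex pattern therefore cannot be fully told apart here.

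**Figure D4:**
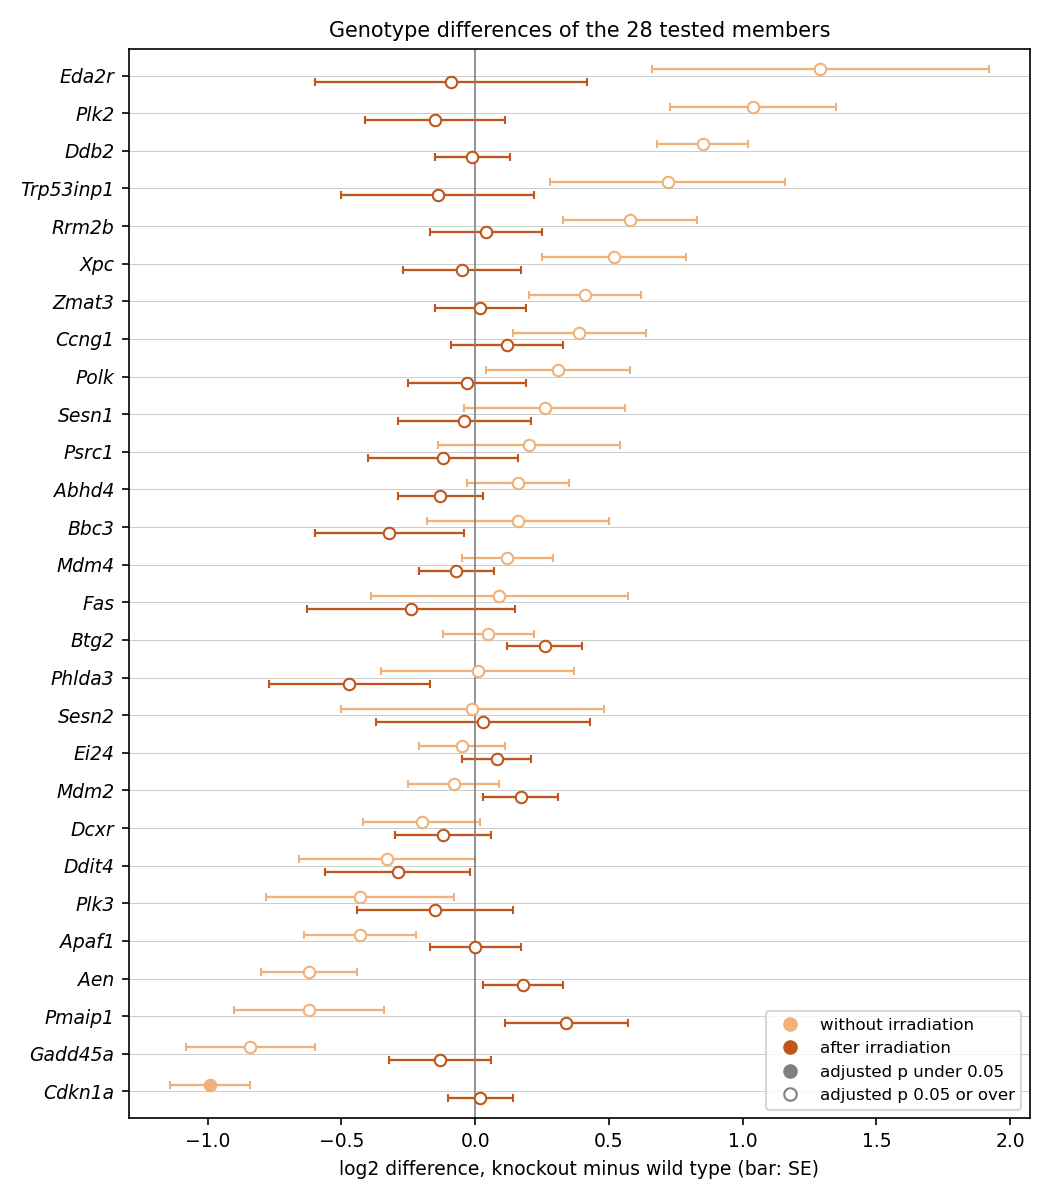
Difference between knockout and wild type (log2 MAS5 signal, x axis) for the 28 tested members (rows), without irradiation (light) and after irradiation (dark), with bars for the standard error and filled points for an adjusted p under 0.05. Without irradiation the differences spread from -0.99 (Cdkn1a, the one filled point) to 1.29 (Eda2r), and after irradiation from -0.47 to 0.34.

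The difference between the irradiation effects of the 2 genotypes was tested as an interaction, and 0 of 28 members passed (0.207% of all genes did), with 6 members and 1311 genes at an unadjusted p under 0.05. Cdkn1a came closest, since its fall was 1.0 ± 0.19 log2 units smaller in knockout (95% interval 0.57 to 1.43, limma adjusted p = 0.11). Ddb2 followed at -0.86 ± 0.23 (-1.36 to -0.35, adjusted p = 0.243). For both, the genotypes differed by more without irradiation (-0.99 and 0.85) than after it (0.02 and -0.01). The interaction shares its unirradiated arrays with the genotype comparison, so these values are not separate evidence. Irradiated arrays had the female pattern throughout in wild type but only on the first array in knockout, so sex pattern also enters the interaction.

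Other genes of the pathway were read from 4 further lists. Their counts stand beside 24.1% of all genes called in wild type and 23.5% in knockout. Of 27 tested genes that activate or control p53, 2 rose and 2 fell in wild type (14.8%), with a median of 0.17. Trp63, the p53 relative that specifies squamous epithelium and is also in the squamous marker list, rose by 6.52, the kinase gene Hipk2 rose by 1.08, and Ppp1r13b (ASPP1) and the deubiquitinase gene Usp7 fell by 0.56 and 0.43. The size of the Trp63 rise is uncertain, as 11 of 13 measured squamous markers lay below the array median on every unirradiated array. In knockout 2 rose and 4 fell (22.2%), with a median of 0.06. The 4 with the smallest p were Trp63 (5.55), the deacetylase gene Sirt1 (-0.84), Usp28 (-0.73) and Rps27l (0.50), and Ppp1r13b (-0.48) fell there as well.

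Among 39 tested further targets of p53, 8 rose and 2 fell in wild type (25.6%, median 0.21), and 7 rose and 2 fell in knockout (23.1%, median 0.41). The phospholipid transfer protein gene Pltp (1.50 and 1.46), the autophagy regulator gene Dram1 (2.12 and 2.38) and the epoxide hydrolase gene Ephx1 (1.58 and 1.21) rose in both genotypes. The growth factor-binding protein gene Igfbp3 rose in wild type (3.60) and had 2.32 in knockout (limma adjusted p = 0.0525). The peptide transporter gene Tap1 (2.51) and the 14-3-3 sigma gene Sfn (1.46) rose in knockout and had -0.17 and -0.29 in wild type, but the difference of the effects was not called for either (adjusted p = 0.11 and 0.135). Tap1 and Sfn were also the 2 that were called between unirradiated genotypes, where knockout was lower by 2.69 ± 0.40 and 1.92 ± 0.28 log2 units.

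Of 17 tested genes of the apoptosis machinery, 5 fell in wild type (29.4%, median -0.28), and 1 rose and 4 fell in knockout (29.4%, median -0.34). The antiapoptotic genes Bcl2l1 (-0.86 and -0.82), Mcl1 (-0.65 and -0.62) and Xiap (-0.78 and -0.55) fell in both genotypes. The pore-forming Bak1 fell in wild type (-1.0), and Tnfsf10, which encodes the ligand TRAIL, rose in knockout (2.71). The list therefore holds falls of both inhibitors and effectors of apoptosis.

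Of 24 tested cell cycle genes that p21 acts on or alongside, 3 rose in wild type (Cdk6 by 1.24, Cdkn2c by 0.87 and Cdkn1c by 0.89, 12.5%, median -0.07) and 1 in knockout (Ccnd1 by 0.82, 4.17%, median 0.14). Cdk6 encodes a G1 kinase, Cdkn2c and Cdkn1c inhibitors of such kinases, and Ccnd1 cyclin D1.

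**Figure D5:**
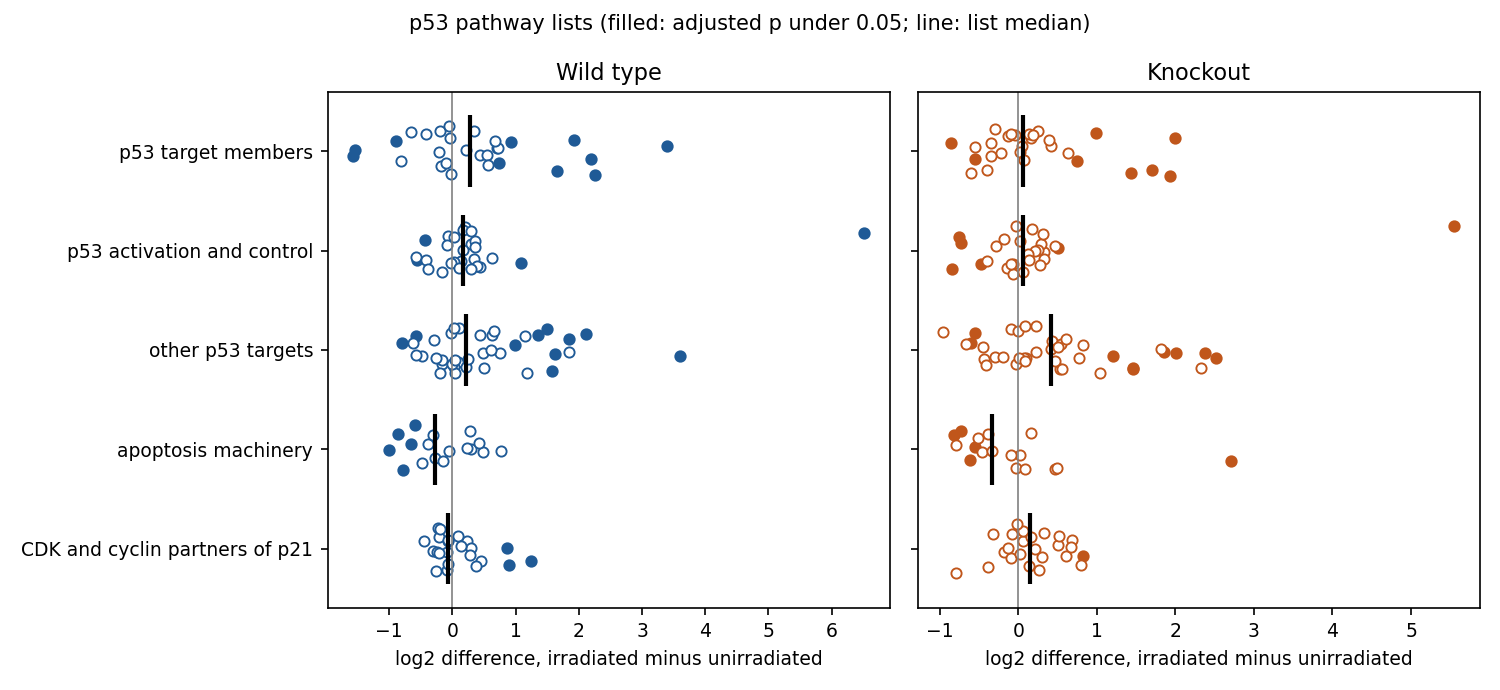
Difference between irradiated and unirradiated arrays (log2 MAS5 signal, x axis) for each tested gene of the p53 target list and of 4 further lists (rows), in wild type (left) and knockout (right). Filled points have an adjusted p under 0.05, vertical position within a row is arbitrary, and black lines are list medians, which run from -0.28 to 0.28 in wild type and from -0.34 to 0.41 in knockout.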

How the data were processed

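Total RNA of distal colorectum was hybridised to Affymetrix arrays, 1 array per sample. Per the submitters' processing notes and the design text, the authors computed the deposited signals with MAS5 (version not given in the sources used here). That the values are on a log2 scale was judged from the deposited values. Unlogged signals, without the top and bottom 2% of each array, had a mean of 500 averaged over the arrays. The number of arrays limits the precision, and MAS5 spreads dim signals widely.

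Values were used as deposited. Of the probe sets, 34945 had 1 gene in the platform annotation, and symbols were updated by gene ID for 34741 from a GRCm38.p6 table. Differences were fitted in R 4.3.3 by limma 3.58.1 (lmFit, contrasts.fit, and eBayes with a trend). The 10 arrays entered one fit of 4 group means, which leaves 6 residual degrees of freedom, and p-values were adjusted by Benjamini-Hochberg over the 12568 genes tested, with a threshold of 0.05. The fit was tested on simulated data. The 6 comparisons were irradiation in wild type, in knockout and averaged, genotype at each dose, and the interaction (knockout effect minus wild type effect). Genotype differences are signed as knockout minus wild type.

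The members and all gene lists were chosen with earlier results of these data known. Values on every array are given for members past the threshold in a comparison whose groups do not overlap and for Mdm2 and Cdkn1a. Members past the threshold are named in each comparison, or the 2 with the smallest p where none passed. Up to 4 genes of each other list are named, by smallest p. Among members shown beyond this rule, values were seen before they were chosen.

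Alternatives were quantile normalization, median centring, pseudocounts of 16 and 64, no filter on low values, the mean of probe sets, no variance trend, array weights, the groups compared alone, the sex pattern as covariate, arrays of 1 sex pattern, a replicate block and leaving out each array. Testing every probe set on its own was added after seeing the data. The 14 marker lists covered epithelium (colonocytes, goblet, crypt stem and squamous cells), immune cells (macrophages, mast cells, neutrophils, B and plasma cells, T and NK cells), stroma (endothelium, fibroblasts, adipocytes) and muscle (striated, smooth).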

Additional observations from a re-analysis of the deposited data

How the results depend on the processing

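Over the alternatives, the wild type irradiation call of Cdkn1a and the knockout call of Psrc1 held in every setting run, and so did the averaged calls of Cdkn1a, Gadd45a and Psrc1. The members called in wild type numbered 10, and 1 with the sex pattern as covariate. In knockout they numbered 8, but 5 with the replicate block, 4 with the sex pattern, 3 on arrays of 1 sex pattern and 2 to 10 when 1 array was left out. With both genotypes averaged they numbered 12, and 4 with the sex pattern. Between unirradiated genotypes they numbered 1, but 2 without the variance trend, 0 with the block, 0 with only the groups compared and 0 to 1 with 1 array left out. With every probe set tested on its own, 13, 9 and 14 members were called after irradiation of wild type, of knockout and over both.

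Over all genes, the 3028 calls in wild type became 1995 with the replicate block, 16 with the sex pattern and 1323 to 3469 with 1 array left out. The 2957 in knockout became 1706 with the sex pattern, 1378 on arrays of 1 sex pattern and 1189 to 3596 with 1 array left out, and the 4905 averaged calls became 818 with the sex pattern. Between unirradiated genotypes 154 became 70 with the block and 41 to 255 with 1 array left out, and after irradiation 0 became 0 to 3. The interaction's 26 became 16 with a pseudocount of 64, 10 without the trend, 3 with the block, 4 with the sex pattern and 14 to 35 with 1 array left out. The block, sex and leave-one-out fits have fewer arrays or residual degrees of freedom, and in wild type the sex pattern cannot be told apart from irradiation. Why the counts changed was not tested in any setting.

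The value of Plk2 in knockout reversed to -0.21 when its dim second probe set was averaged in, and Psrc1 gave no value there. Quantile normalization left 5 members higher and 3 lower in wild type. Median centring moved the share of higher calls from 59.1% to 36.5% for averaged irradiation, from 34.4% to 13% (23.3% with quantile normalization) between unirradiated genotypes and from 84.6% to 96.6% in the interaction. The labels do not say whether replicate numbers pair the samples. Deviations of arrays with the same number correlated at -0.179 to 0.156, which cannot settle it with so few arrays a group. Dim signals limit Eda2r, Sesn2, Psrc1, Tnfrsf10b and Zfp365.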
